A study of Homo sapiens with 12 samples.

Results

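The 10 genes examined here belong to the NRF2 antioxidant pathway and were followed in the RNA of pancreatic cancer cells that overexpressed TAp63 or deltaNp63. They were taken by name from 39099 genes: the transcription factor gene NFE2L2 and its inhibitor KEAP1, and the enzyme genes GCLC, GCLM, TXNRD1, SRXN1, NQO1, AKR1C1, AKR1B10 and HMOX1. Another 74 genes of the same pathway, grouped by role, were read beside them. The study held 12 RNA-seq libraries from ASPC1 and PANC1, established human pancreatic cancer cell lines. Each line was represented by a mock control, by cells labelled TAp63 O/E and by cells labelled deltaNp63 O/E, in which a p63 protein with or without the N-terminal transactivation domain was overexpressed. Each of the 6 groups held 2 libraries labelled as biological replicates. The labels do not say whether these were separate cultures, nor which vector was used, so p-values measure the spread between these libraries. The study asked how overexpression of each p63 class changes the transcriptome of these cells.

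NFE2L2 encodes NRF2, a transcription factor that pairs with small MAF proteins and binds antioxidant response elements beside genes for glutathione synthesis, the thioredoxin system, quinone and carbonyl reduction, and haem breakdown. KEAP1 is the adaptor that presents NRF2 to the CUL3 ubiquitin ligase, so that NRF2 is degraded until electrophiles or oxidants modify KEAP1. BACH1 occupies the same elements as a repressor, and HMOX1 is its best known target. Because NRF2 is controlled mainly through protein stability, the RNA of its targets is often read as a sign of its activity. In pancreatic cancer NRF2 is known for keeping oxidants low in cells with activated RAS signalling.

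The antioxidant response element is the sequence these genes are known to share, so the core TGACNNNGC was searched on both strands of promoter windows of 300 bases, 250 before and 50 after each RefSeq start (GRCh38.p14). RefSeq windows were at hand for 8 of the 10 genes, 11 windows in all. The core was in 4 of these 11 windows, or 36.4%, and in 4687 of 35116 windows of all genes, or 13.3%. Windows of the other pathway genes held it in 18 of 88, or 20.5%. Of the 8 genes, 3 had a match, namely GCLM, KEAP1 and TXNRD1. Both TXNRD1 windows are among the 4, so the windows are not independent, and the shares were not tested. Their stretches are shown because they place the core letters beside an inhibitor gene as well as beside target genes. Capitals mark the core and lower case the 10 flanking bases on either side.
GCLM, chr1:93909446-93909474, plus strand: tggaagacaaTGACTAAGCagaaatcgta
KEAP1, chr19:10502784-10502812, plus strand: caggtcaccaTGACTAAGCagagccgggc
KEAP1, chr19:10502807-10502835, minus strand: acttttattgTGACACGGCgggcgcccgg
TXNRD1, chr12:104286920-104286948, minus strand: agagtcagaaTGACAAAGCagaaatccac
The GCLM core lay 26 to 34 bases upstream of the RefSeq start, and upstream of each GCLM transcript that has a row in the table. It has the same 9 letters, TGACTAAGC, as the KEAP1 core on the plus strand. The KEAP1 matches lay 23 to 31 and 46 to 54 bases upstream of the RefSeq start at 10502771. GENCODE places both inside a non-coding exon stretch of the transcript KEAP1-202 and inside introns of KEAP1-201, KEAP1-203 and KEAP1-209. The TXNRD1 match lay 94 to 102 bases upstream of the internal start at 104287032, in a non-coding exon stretch of TXNRD1-201 and 2 other transcripts. The upstream TXNRD1 window held 2 further matches. No core was found in the windows of NFE2L2, GCLC, AKR1C1, NQO1 and SRXN1, which says only that these letters are not in those windows. A match is a string of letters, and no binding was measured here.

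Values were TPM, relative transcript abundances, summed over the transcripts of a gene. TPM is already scaled by transcript length and library. Levels of different genes can be set side by side only as far as reads were divided rightly among transcripts. Read depth is unknown. Fold changes are differences of log2(TPM + 1), and each adjusted p is a two-sided Benjamini-Hochberg value over 14767 tested genes from limma, called below 0.05. Genes had to reach 1 TPM in at least 2 libraries, which AKR1B10 did not, and this left 9 of the 10 genes with tests. The overexpressed gene, TP63, was at 0.0245 to 1.1 TPM in the 4 mock libraries, and at 102 to 350 TPM in ASPC1 and 324 to 1187 TPM in PANC1 with a construct. TAp63 cells had the lower group mean in each line. It was 136 TPM against 298 TPM for deltaNp63 cells of ASPC1, and 333 TPM against 1001 TPM for those of PANC1. Class and line thus each went along with a different TP63 RNA level, and the part of this level was not tested. The libraries each held 12212 to 13161 genes at 1 TPM or more. The replicates of ASPC1 deltaNp63 stood farthest apart, with a median absolute log2 difference of 0.211 against 0.092 to 0.148 in the other groups. Among defining markers, the epithelial keratin KRT8 was at 1566 TPM or more in each library. CDH1, which encodes E-cadherin, was at 81.8 to 123 TPM in ASPC1 but at 2.37 to 3.74 TPM in PANC1. Of the leukocyte markers PTPRC and CD3E did not exceed 0.0552 TPM, while CD68, which encodes a lysosomal protein, was at 90.8 to 126 TPM in ASPC1 and 255 to 288 TPM in PANC1. INS of islets was listed at 0. The collagen gene COL1A1 reached 0.383 TPM in ASPC1 and 80.8 to 111 TPM in PANC1, while the other 3 of 4 fibroblast markers stayed at or below 0.998 TPM.

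The regulators came first, and the lines differed in opposite directions in the activator and its inhibitor. NFE2L2 (ENSG00000116044, chromosome 2 from 177218667 to 177392756, minus strand, hg38) was at 279 and 296 TPM in ASPC1 mock, 322 and 303 TPM with TAp63, and 265 and 293 TPM with deltaNp63. The PANC1 levels were 86.8 and 87.7 TPM with mock, 86.7 and 80.5 TPM with TAp63, and 80.8 and 97.4 TPM with deltaNp63. Each ASPC1 library lay above each PANC1 library. Both ASPC1 TAp63 values were above both mock values and both PANC1 TAp63 values just below them, while the deltaNp63 values overlapped mock in either line. In bulk RNA, fewer cells with a transcript and less of it per cell cannot be told apart. KEAP1 (ENSG00000079999, chromosome 19 from 10486125 to 10503558, minus strand) ran the other way. Its 6 PANC1 libraries, at 61.4 to 74.6 TPM, all exceeded the 6 ASPC1 libraries, at 15.4 to 35.9 TPM. PANC1 values were 65.1 and 61.4 TPM with mock, 71.9 and 74.6 TPM with TAp63, and 64.3 and 63.5 TPM with deltaNp63. The ASPC1 values are given with the deltaNp63 comparison below. NFE2L2 RNA was thus 8.23 to 17.2 times as abundant as KEAP1 RNA in ASPC1 libraries and 1.08 to 1.54 times as abundant in PANC1 libraries.

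Glutamate cysteine ligase, the enzyme that makes the first and limiting step of glutathione synthesis, has a subunit whose levels did not overlap between the lines and another whose levels did. GCLM (ENSG00000023909, chromosome 1 from 93885199 to 93909456, minus strand), the modifier subunit, was at 3.75 and 4.32 TPM in ASPC1 mock, 5.87 and 3.81 TPM with TAp63, and 3.81 and 3.19 TPM with deltaNp63. In PANC1 the gene was at 39.3 and 42.3 TPM with mock, 35.0 and 33.6 TPM with TAp63, and 38.7 and 46.5 TPM with deltaNp63. The lines did not overlap, and the mean of PANC1 mock was 10.1 times that of ASPC1 mock. GCLC (ENSG00000001084, chromosome 6 from 53497341 to 53616970, minus strand), the catalytic subunit, had the widest spread of the 10 genes within a line. It was at 14.2 and 19.4 TPM in ASPC1 mock, 5.76 and 24.0 TPM with TAp63, and 6.53 and 16.8 TPM with deltaNp63. Its levels in PANC1 were 7.54 and 8.65 TPM with mock, 11.1 and 10.8 TPM with TAp63, and 15.1 and 12.6 TPM with deltaNp63. In ASPC1 the construct libraries spanned the mock values, and in PANC1 the 4 construct libraries lay above both mock libraries. Of the 7 GCLC transcripts with a row, those with a retained intron held 22.2 to 89.7% of its TPM in PANC1 and 24.8 to 52.2% in ASPC1. The reference (MANE Select) transcript of GCLC had no row, so its sum may miss part of the gene.

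TXNRD1 and SRXN1, of the thioredoxin and peroxiredoxin system, were abundant in both lines, and more so in ASPC1. TXNRD1 (ENSG00000198431, chromosome 12 from 104215779 to 104350307, plus strand), thioredoxin reductase of the cytosol, was at 270 and 303 TPM in ASPC1 mock, 235 and 242 TPM with TAp63, and 234 and 242 TPM with deltaNp63. PANC1 libraries were at 149 and 181 TPM with mock, 140 and 161 TPM with TAp63, and 150 and 192 TPM with deltaNp63. In ASPC1 the 4 construct libraries lay below both mock libraries, and in PANC1 mock and construct libraries overlapped. SRXN1 (ENSG00000271303, chromosome 20 from 646615 to 653200, minus strand), sulfiredoxin, which restores overoxidised peroxiredoxins, was at 99.1 and 105 TPM in ASPC1 mock, 95.3 and 102 TPM with TAp63, and 89.5 and 99.2 TPM with deltaNp63. The PANC1 levels were 58.0 and 68.0 TPM with mock, 62.7 and 62.1 TPM with TAp63, and 59.0 and 68.2 TPM with deltaNp63. For each gene the lowest ASPC1 library was above the highest PANC1 library.

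NQO1 and the aldo-keto reductase AKR1C1, which reduce quinones and carbonyls, were also more abundant in ASPC1. NQO1 (ENSG00000181019, chromosome 16 from 69706996 to 69726668, minus strand) was the most abundant of the 10 genes in ASPC1. It was at 780 and 753 TPM in ASPC1 mock, 744 and 731 TPM with TAp63, and 779 and 752 TPM with deltaNp63. PANC1 values were 264 and 265 TPM with mock, 252 and 260 TPM with TAp63, and 254 TPM in both deltaNp63 libraries. All 6 libraries of a line lay within 0.09 log2 units in ASPC1 and 0.07 in PANC1. AKR1C1 (ENSG00000187134, chromosome 10 from 4963253 to 4983283, plus strand) was at 36.8 and 39.7 TPM in ASPC1 mock, 29.7 and 27.1 TPM with TAp63, and 24.1 and 34.4 TPM with deltaNp63. In PANC1 it was near 0, at 0.0623 and 0.0799 TPM with mock, 0.331 and 0.181 TPM with TAp63, and 0.00816 and 0.0179 TPM with deltaNp63. Both mock values in ASPC1 lay above the 4 construct values. In PANC1 the TAp63 values were above mock and the deltaNp63 values below, all at levels too low to pass the filter by themselves. AKR1B10 (ENSG00000198074, chromosome 7 from 134527567 to 134541412, plus strand) was close to 0 everywhere, at 0.293 to 0.605 TPM in ASPC1 and 0 to 0.343 TPM in PANC1, and was not tested. AKR1C1, AKR1C2 and AKR1C3 are paralogs that are alike to differing degrees, so the division of reads among them may be uncertain.

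HMOX1 (ENSG00000100292, chromosome 22 from 35380361 to 35394214, plus strand), haem oxygenase 1, which opens the haem ring, had the largest log2(TPM + 1) difference between the mock lines of the 9 genes tested. It was at 2.04 and 2.19 TPM in ASPC1 mock, 1.51 and 1.26 TPM with TAp63, and 1.22 and 1.55 TPM with deltaNp63. In PANC1 the gene was at 216 and 286 TPM with mock, 229 and 225 TPM with TAp63, and 255 and 310 TPM with deltaNp63. The mean of PANC1 mock was 119 times that of ASPC1 mock, and the 4 construct values in ASPC1 were below both mock values.

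**Figure D1:**
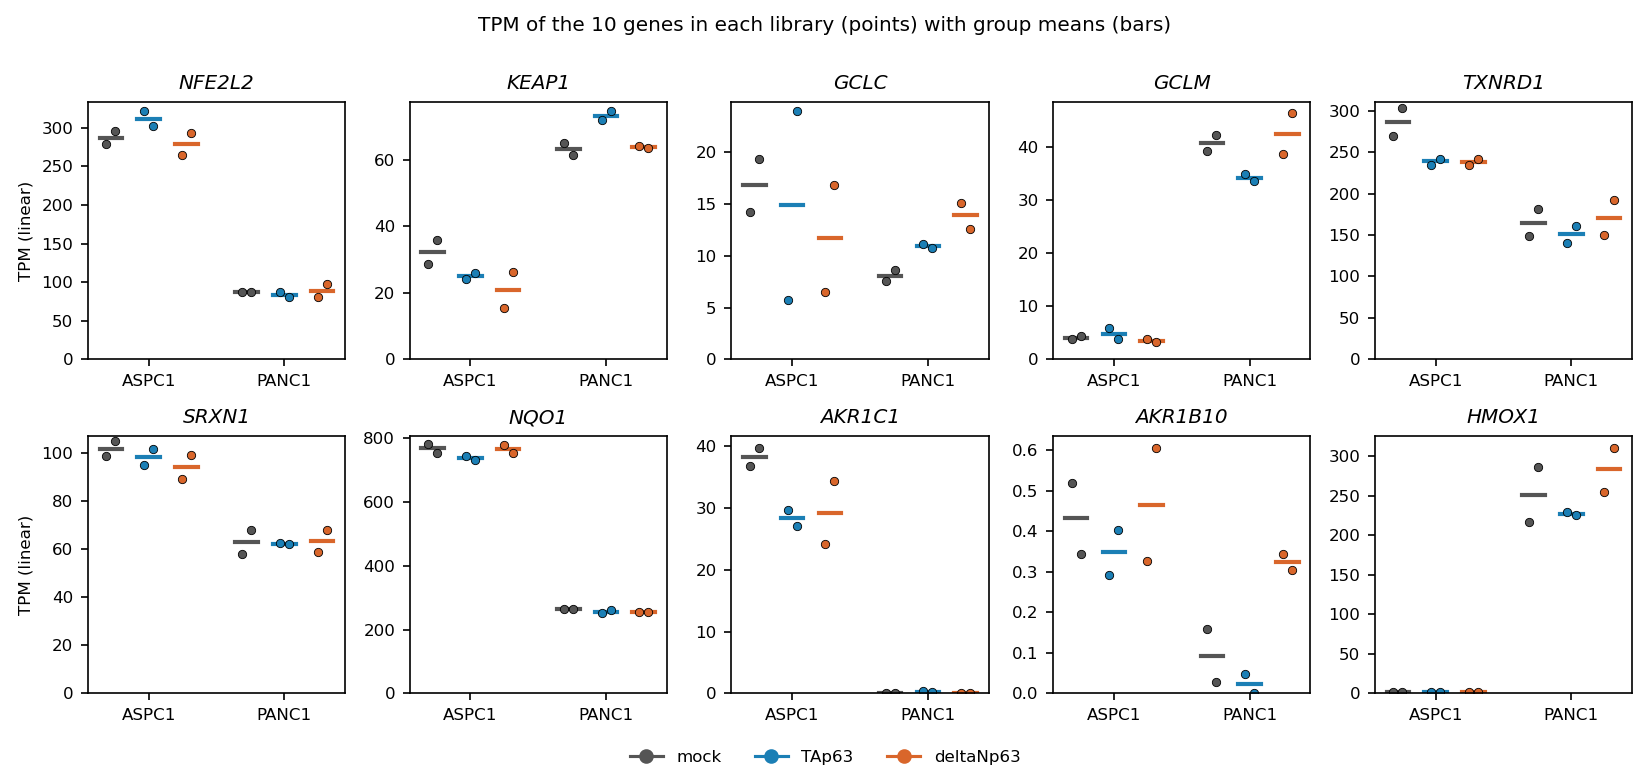
TPM of each of the 10 genes on a linear axis from 0, by cell line; points are single libraries, bars are group means of 2 libraries, and colours mark mock, TAp63 and deltaNp63. HMOX1 is at 1.22 to 2.19 TPM in ASPC1 and 216 to 310 TPM in PANC1, while NQO1 is at 731 to 780 and 252 to 265 TPM.

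The comparison of the mock lines asked how far the pathway differed before any p63 was added. Of the 9 tested genes, 8 differed between PANC1 mock and ASPC1 mock, 3 higher and 5 lower in PANC1. Of all tested genes 72.5% differed, 44.6% higher and 27.9% lower, so the share of these 9 has to be read against that background. HMOX1 was higher in PANC1 by 6.32 log2 units (SE 0.148, limma adjusted p 1.85e-10), GCLM by 3.06 (SE 0.168, limma adjusted p 8.72e-08) and KEAP1 by 0.96 (SE 0.196, limma adjusted p 0.00138). AKR1C1 was lower in PANC1 with a log2 difference of -5.19 (SE 0.158, limma adjusted p 1.03e-09). NFE2L2 had a difference of -1.71 (SE 0.099, limma adjusted p 1.26e-07) and NQO1 of -1.53 (SE 0.058, limma adjusted p 5.26e-09). Smaller differences were found for TXNRD1, at -0.80 (limma adjusted p 0.000348), and SRXN1, at -0.69 (limma adjusted p 0.000174). In each of these 8 genes both libraries of a line were on the same side. Called differences between groups of 2 nearly always have this, so it adds no support, and its share over all genes was not counted. The target genes did not all differ in the same direction: GCLM and HMOX1 were higher, and NQO1, TXNRD1, SRXN1 and AKR1C1 lower, in the line with less NFE2L2 RNA. GCLC, at -0.96 (95% interval -2.15 to 0.23, limma adjusted p 0.129), did not pass, although it passed when only the 4 mock libraries were fitted (limma adjusted p 0.00653). The marker differences above, CDH1 higher in ASPC1 and COL1A1 higher in PANC1, run along the same split, and their part in these differences was not tested.

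The other pathway genes showed the same mixture. Of 69 tested, 31 were higher and 28 lower in PANC1 mock, together 85.5% against the background of 72.5%, with a median log2 difference of 0.03 against 0.24 for all genes. With quantile normalization 27 were higher and 31 lower, and with median centring 26 and 33, as the median of all genes moved from 0.24 to 0.08 and 0.07. No called gene changed direction under these scalings. The 3 genes with the largest rises were AKR1B1, GSTM3 and GPX3. AKR1B1, aldose reductase, was at 0 to 0.149 TPM in ASPC1 and 125 to 137 TPM in PANC1, a log2 difference between mock groups of 6.89 (SE 0.101, limma adjusted p 1.75e-11). GSTM3, a glutathione transferase, was at 0.072 to 0.747 TPM in ASPC1 and 73.5 to 85.3 TPM in PANC1. GPX3, a secreted glutathione peroxidase, was at 0.3 to 0.702 and 15.3 to 18.7 TPM. At the other end, AKR1C3, a ketosteroid reductase of the AKR1C cluster, was at 275 to 345 TPM in ASPC1 and 0 to 0.376 TPM in PANC1, a log2 difference of -8.04 (SE 0.155, limma adjusted p 6.53e-11). ALDH3A1, an aldehyde dehydrogenase, was at 48.9 to 68.5 TPM in ASPC1 and listed at 0 in both PANC1 mock libraries. ABCG2, a drug efflux transporter, was at 32.5 to 50.0 and 2.26 to 2.94 TPM. The abundant aldo-keto reductase RNAs thus differed, with AKR1C1, AKR1C2 and AKR1C3 in ASPC1 and AKR1B1 in PANC1, while AKR1A1, a widely expressed aldehyde reductase named after its values were seen, was at 51.5 to 67.1 TPM in ASPC1 and 121 to 146 TPM in PANC1.

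Genes of the roles below were named after their values were seen. All 3 tested genes of glutathione recycling and cystine uptake (GSR, SLC7A11 and SLC3A2) were lower in PANC1. Of 10 reduction and detoxification genes 3 were higher (AKR1A1, AKR1B1 and CBR3) and 4 lower (AKR1C2, AKR1C3, ALDH3A1 and EPHX1). SLC7A11, the cystine transporter, was at 27.9 to 35.6 TPM in ASPC1 and 5.56 to 8.19 TPM in PANC1 (log2 difference -1.90, limma adjusted p 1.6e-07). All 3 tested superoxide dismutase and catalase genes (SOD1, SOD2 and CAT) were higher in PANC1. Of 15 glutathione-dependent enzymes 7 were higher and 5 lower, and of 9 other thioredoxin and peroxiredoxin genes 5 were higher and 3 lower. Among 8 other regulators 4 were higher and 3 lower. These counts are to be read against the 44.6% of all tested genes that were higher and 27.9% that were lower, and with so few genes a role they show nothing particular to a role. BACH1, the repressor of HMOX1, was at 135 to 143 TPM in ASPC1 and 6.8 to 10.2 TPM in PANC1, a log2 difference of -3.78 (SE 0.105, limma adjusted p 5.33e-10). MAFF, a small MAF partner, differed by -2.89 (SE 0.155, limma adjusted p 7.14e-08), while MAFG did not pass (0.02, limma adjusted p 0.879). NFE2L2 RNA was 1.96 to 2.29 times as abundant as BACH1 RNA in ASPC1 and 8.64 to 11.8 times in PANC1, the reverse of its order against KEAP1.

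**Figure D2:**
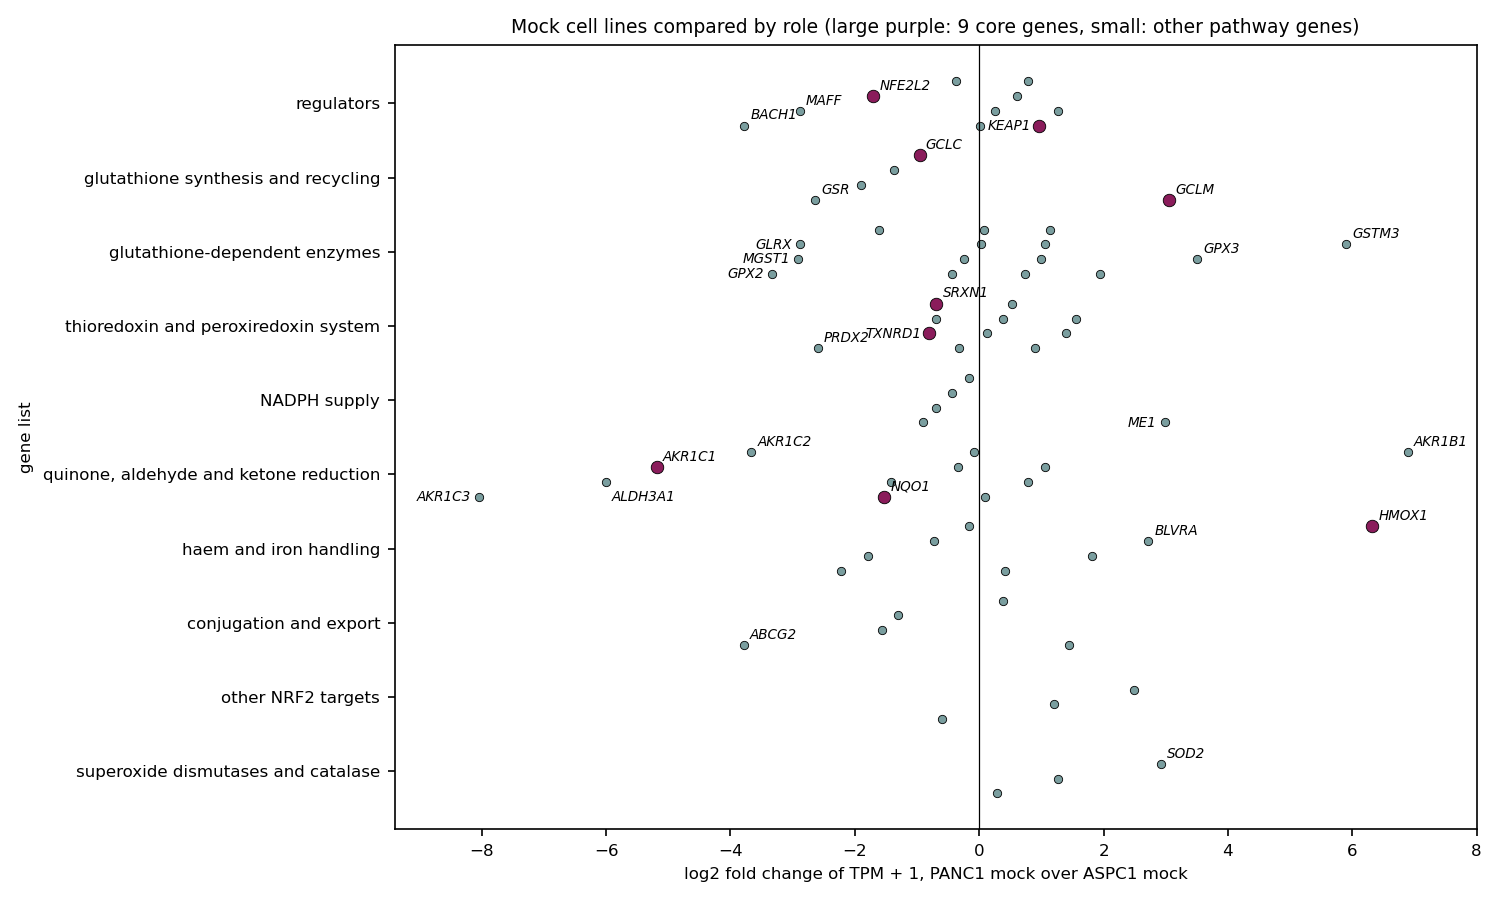
Log2 fold change of TPM + 1 of PANC1 mock over ASPC1 mock (horizontal axis) by pathway role (rows, points staggered for legibility), 2 libraries a group; large purple points are the 9 core genes and small points other pathway genes, 1 of which is left out, with labels on the core genes and on others beyond 2.5 log2 units. Core genes run from AKR1C1 at -5.19 to HMOX1 at 6.32, and most rows hold points on both sides of 0.

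Overexpression of TAp63 was then compared with mock. In ASPC1 none of the 9 genes passed, against 0.637% of all tested genes, and in PANC1 none passed, against 0.00677%. In ASPC1 the 9 log2 changes ran from -0.44 for GCLC to 0.19 for GCLM, with a median of -0.26 against -0.08 for all genes. At an unadjusted p under 0.05 there were 2 of the 9, against 2233 of all 14767 genes. These were AKR1C1, with a change of -0.42 (95% interval -0.77 to -0.06, limma adjusted p 0.255), and HMOX1, with -0.39 (-0.72 to -0.05, limma adjusted p 0.263). NQO1 was measured most tightly, with a change of -0.06 and an interval from -0.19 to 0.07. For NFE2L2 the value was 0.12, with an interval from -0.10 to 0.34. In PANC1 the changes ran from -0.24 for GCLM to 0.40 for GCLC, with none of the 9 at an unadjusted p under 0.05 against 503 of all genes. The intervals in PANC1 were -0.28 to 0.16 for NFE2L2, -0.18 to 0.08 for NQO1 and -0.46 to 0.20 for HMOX1. A gene with a wide interval is not shown to be unaffected: GCLC could lie between -1.63 and 0.75 in ASPC1 and between -0.79 and 1.59 in PANC1. All groups share the estimate of spread, so the PANC1 interval also carries the spread of the ASPC1 replicates. With TAp63 these GCLC replicates were at 5.76 and 24.0 TPM in ASPC1, against 11.1 and 10.8 TPM in PANC1.

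With deltaNp63 none of the 9 genes passed either, against 7.14% of all tested genes in ASPC1 and 0.0406% in PANC1. In ASPC1 all 9 changes were at or below 0, from -0.65 for KEAP1 to 0.00 for NQO1, with a median of -0.26 against -0.12 for all genes. This balance was much the same with quantile normalization and was not kept with median centring. The median of all genes was then 0 and 0.09, and the number of the 9 genes below 0 was 8 and 5. The median of the 9 genes was -0.24 with quantile normalization and -0.06 with median centring. In these scalings the called genes overall were 51 higher and 148 lower, and 249 higher and 170 lower, against 94 higher and 961 lower as first fitted. Of the 9, 3 had an unadjusted p under 0.05, against 4383 of all genes: KEAP1, AKR1C1 at -0.40 (95% interval -0.75 to -0.04, limma adjusted p 0.131) and HMOX1 at -0.39 (-0.72 to -0.06, limma adjusted p 0.117). In PANC1 the changes ran from -0.08 for AKR1C1 to 0.71 for GCLC, and none of the 9 had an unadjusted p under 0.05, against 345 of all genes. Intervals there were -0.20 to 0.25 for NFE2L2, -0.19 to 0.07 for NQO1 and -0.15 to 0.51 for HMOX1.

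KEAP1 in ASPC1 came closest to the threshold, and its value rested on 1 library. KEAP1 was at 28.7 and 35.9 TPM with mock, 24.2 and 26.1 TPM with TAp63, and 15.4 and 26.2 TPM with deltaNp63. The 4 construct libraries lay below both mock libraries, and replicate 1 of deltaNp63 was well below the rest. Its deltaNp63 change was -0.65 log2 units (SE 0.196, 95% interval -1.09 to -0.21, limma adjusted p 0.0676). Without replicate 1 of deltaNp63 it was -0.28 (limma adjusted p 0.318), and without replicate 2 it was -1.01 (limma adjusted p 0.00124), with the remaining library assumed to vary like the other groups. It passed with a filter of at least 5 TPM on average (limma adjusted p 0.0438). AKR1C1 also was lower in replicate 1 of deltaNp63: its change was -0.15 without that library (limma adjusted p 0.654) and -0.65 without replicate 2 (limma adjusted p 0.00989). With TAp63 the change of KEAP1 was -0.34 (95% interval -0.78 to 0.10, limma adjusted p 0.446).

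**Figure D3:**
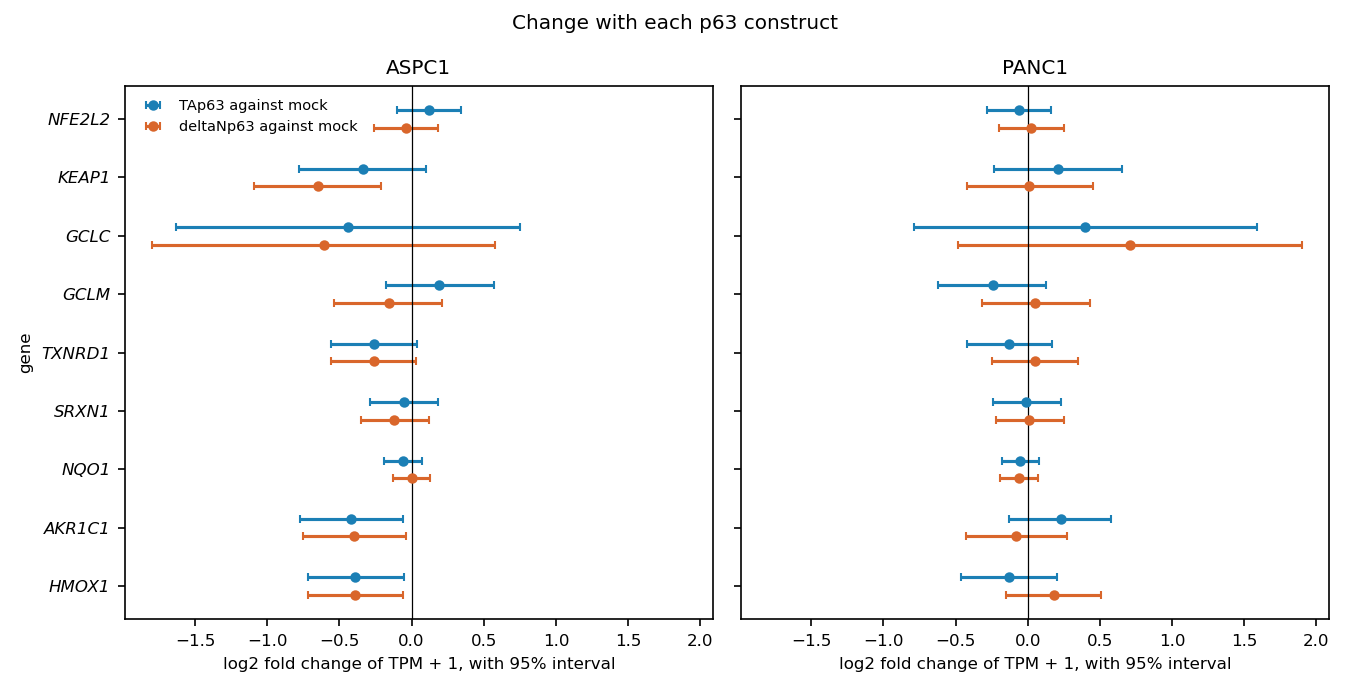
Log2 fold change of TPM + 1 against mock (horizontal axis) for the 9 tested genes (vertical axis), with TAp63 and deltaNp63 in ASPC1 on the left and PANC1 on the right; points are limma estimates from groups of 2 libraries and bars their 95% intervals. NQO1 has the narrowest intervals and GCLC the widest, and none of these changes passed after adjustment.

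No difference between the p63 classes passed for these genes. The classes also differed in TP63 RNA, which was higher with deltaNp63 in both lines, so class and level were not separated. Between TAp63 and deltaNp63 none of the 9 passed in ASPC1, against 0.0203% of all genes, or in PANC1, against 0.0271%. None had an unadjusted p under 0.05 in either line, against 1170 and 437 of all genes. The largest difference in ASPC1 was that of GCLM, which was higher with TAp63 by 0.36 (95% interval -0.02 to 0.73, limma adjusted p 0.639). In PANC1 it was -0.30 (-0.67 to 0.08, limma adjusted p 1.0), the opposite sign. NQO1 differed between the classes by -0.05 in ASPC1 (-0.18 to 0.08) and 0.01 in PANC1 (-0.12 to 0.14). KEAP1 was higher with TAp63 by 0.31 in ASPC1 (-0.13 to 0.74) and by 0.19 in PANC1 (-0.24 to 0.63). Without replicate 2 of ASPC1 deltaNp63 the KEAP1 difference was 0.67 and passed (limma adjusted p 0.0232).

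Whether the constructs acted differently in the lines was tested as the change in PANC1 less the change in ASPC1. With either construct TP63 RNA was higher in PANC1, so line and level were not separated. None of the 9 genes passed for TAp63, against 0.0745% of all genes, or for deltaNp63, against 0.582%. At an unadjusted p under 0.05 there was 1 gene for TAp63, AKR1C1 with a difference of 0.65 (95% interval 0.14 to 1.15, limma adjusted p 0.405), against 1540 of all genes. There were 2 for deltaNp63, KEAP1 at 0.66 (0.04 to 1.28, limma adjusted p 0.282) and HMOX1 at 0.57 (0.10 to 1.03, limma adjusted p 0.249), against 2431 of all genes. Without replicate 2 of ASPC1 deltaNp63 the KEAP1 difference was 1.03 and passed (limma adjusted p 0.00752). The log2(TPM + 1) scale compresses low values, such as those of AKR1C1 in PANC1 and of HMOX1 in ASPC1. With a pseudocount of 0.1 the deltaNp63 change of HMOX1 in ASPC1 was -0.58 (limma adjusted p 0.0669).

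Among the other pathway genes a few passed in ASPC1, all of them lower with p63. With TAp63, 1 of 69 passed and fell, SOD2, the mitochondrial superoxide dismutase, where 0.609% of all genes fell. With deltaNp63, 6 of 69 passed and all 6 fell, 8.7% against the background of 7.14% called and 6.51% that fell, with a median of -0.10 against -0.12 for all genes. In PANC1 none of the 69 passed with either construct, with 2 and 1 at an unadjusted p under 0.05. SOD2 was at 58.6 and 57.1 TPM in ASPC1 mock, 33.7 and 38.5 TPM with TAp63, and 33.6 and 33.2 TPM with deltaNp63. The 4 construct libraries were well below both mock libraries. SOD2 had a log2 change of -0.67 with TAp63 (SE 0.086, limma adjusted p 0.00682). For deltaNp63 the value was -0.77 (SE 0.086, limma adjusted p 0.0014). Its levels in PANC1 were 422 and 465 TPM with mock, 422 and 395 TPM with TAp63, and 443 and 469 TPM with deltaNp63, changes of -0.12 (95% interval -0.31 to 0.07) and 0.04 (-0.15 to 0.23). Both falls lost their calls when only the 4 libraries compared were fitted (limma adjusted p 0.344 with TAp63 and 0.263 with deltaNp63) or only the 6 ASPC1 libraries (0.306 and 0.131). The TAp63 call was also lost without mock replicate 1, mock replicate 2 or TAp63 replicate 1 of ASPC1 (limma adjusted p 0.0562 to 0.0782).

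The calls of the other 5 genes that fell in ASPC1 with deltaNp63 depended on which deltaNp63 and mock libraries were kept. PRDX1, a peroxiredoxin, was at 389 and 344 TPM with mock, 300 and 296 TPM with TAp63, and 232 and 304 TPM with deltaNp63. It fell by 0.46 (SE 0.115, limma adjusted p 0.0468). Another 3, named after their values were seen, were ABCC1, a glutathione conjugate exporter, with a change of -0.45 (limma adjusted p 0.0419), BLVRA, a biliverdin reductase, with -0.40 (limma adjusted p 0.0395), and SQSTM1, which binds KEAP1 and feeds it to autophagy, with -0.43 (limma adjusted p 0.0495). PRDX1, ABCC1, BLVRA and SQSTM1 also did not pass with quantile normalization (-0.48 to -0.19, limma adjusted p 0.0919 to 0.234) or median centring (-0.25 to -0.19, limma adjusted p 0.126 to 0.217). In all 6 genes both deltaNp63 libraries were below both mock libraries. These genes were chosen as called lower in this same comparison, so that order adds no support. Without replicate 1 of deltaNp63 the changes were -0.26 for PRDX1, -0.34 for ABCC1, -0.32 for BLVRA and -0.37 for SQSTM1. These calls were not kept then, nor without either mock replicate of ASPC1, while that of SOD2 was. More of the 69 passed without replicate 2 of deltaNp63, and the share of all genes called in such fits is not given here.

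**Figure D4:**
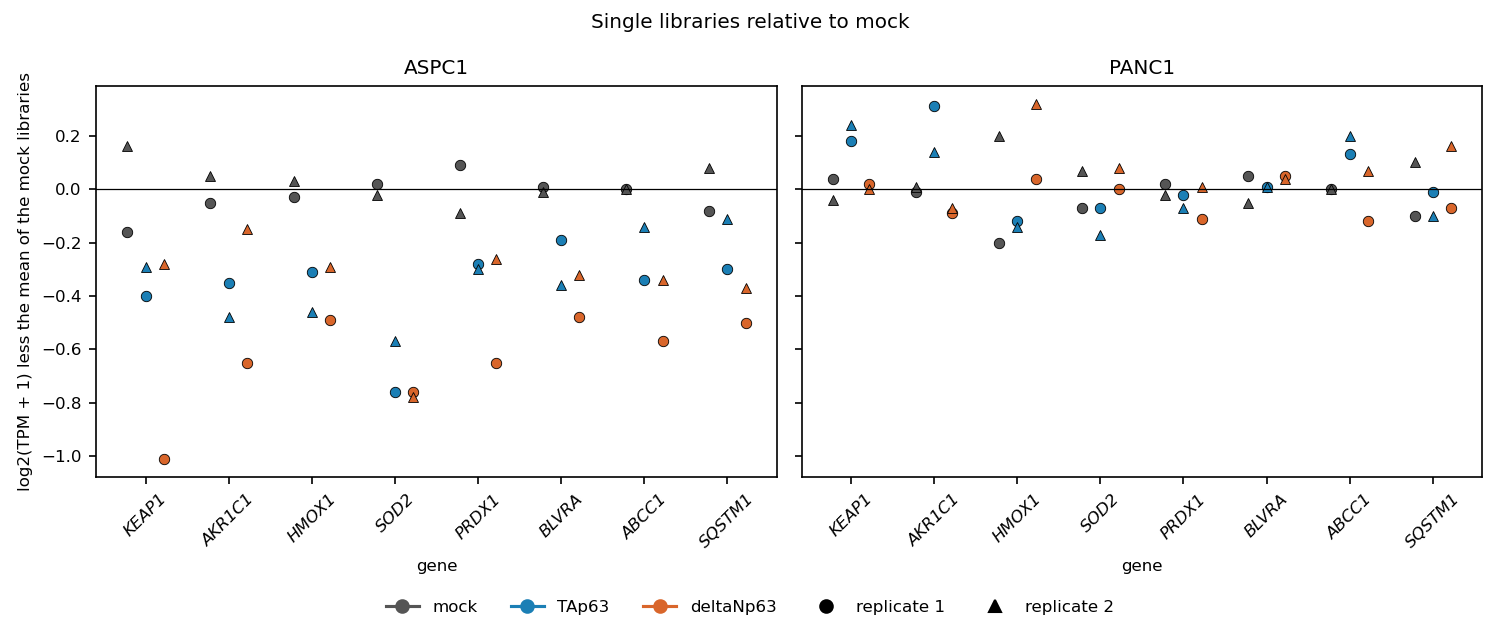
Log2(TPM + 1) of each library less the mean of the mock libraries of its line (vertical axis) for 3 core genes and 5 other pathway genes that fell with deltaNp63 in ASPC1 (horizontal axis); colours mark groups, circles replicate 1 and triangles replicate 2. In ASPC1 the deltaNp63 replicates of KEAP1 sit at -1.01 and -0.28, and the PANC1 libraries run from -0.20 to 0.32, both for HMOX1.

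Transcript shares are given as ranges over the 6 libraries of a line. How reads were divided among transcripts of a gene is not stated in the labels, so these shares are descriptions. Transcripts coding the full NRF2 protein of 605 residues held 50.4 to 60.8% of NFE2L2 TPM in ASPC1 and 48.2 to 64.8% in PANC1. Another 4 transcripts code a protein that lacks the first 16 residues, from an internal start. For KEAP1, the transcript KEAP1-202 starts 460 bases downstream of KEAP1-201, and both code the protein of 624 residues. KEAP1-202, whose exon holds the printed KEAP1 cores, carried 43.6 to 63% of KEAP1 TPM in ASPC1 and 60.4 to 72.6% in PANC1. KEAP1-201 carried 20.4 to 36.6% in ASPC1 and 17.1 to 19.2% in PANC1. KEAP1-205, a transcript with a retained intron, carried 0.0 to 27.7% in ASPC1 and 0.0 to 15.7% in PANC1. In ASPC1 mock it was at 0.0031 and 9.9579 TPM, so the KEAP1 sums are not coding RNA alone. For TXNRD1, 13 of 16 transcripts start internally, and they held 99.6% or more of its TPM in all 12 libraries.

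**Figure D5:**
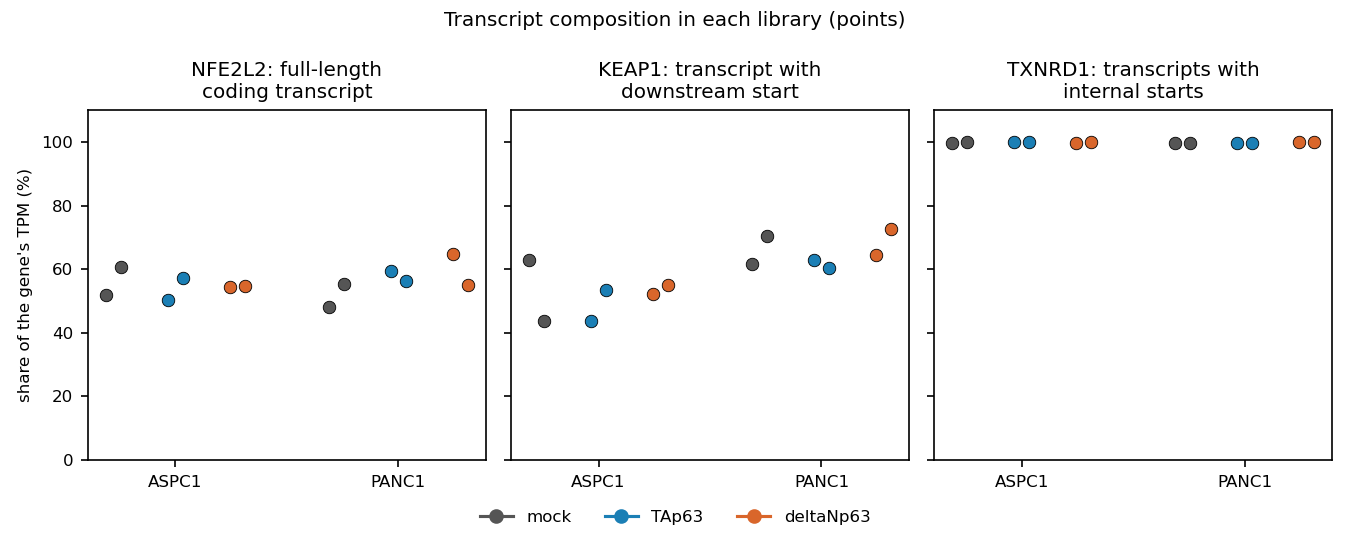
Share of the gene's TPM in percent (vertical axis, 0 to 100) held in each library (points) by NFE2L2 transcripts of the full-length protein, by KEAP1-202 and by TXNRD1 transcripts with internal starts, by cell line (horizontal axis) and group (colours, 2 libraries each). TXNRD1 lies at 99.6% or above throughout, and KEAP1-202 spans 43.6 to 63% in ASPC1 and 60.4 to 72.6% in PANC1.

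Some sums rest on incomplete transcripts. GCLM-203, which has no defined coding sequence, held 58.0 to 74.2% of GCLM TPM in ASPC1 and 55.4 to 64.8% in PANC1. AKR1C1-203, a partial model of 248 residues against 323 for AKR1C1-202, held 93.5 to 97.5% of AKR1C1 in ASPC1. NQO1 was spread over NQO1-206, with 53.4 to 56.4% in ASPC1 and 50.6 to 55.9% in PANC1, and NQO1-202, with 23.1 to 28.0% and 24.6 to 29.1%, while transcripts of its full-length protein held 0.4 to 1.0% and 0.9 to 1.8%. HMOX1-201 held 82.9 to 100% of HMOX1 in ASPC1, where the gene was low, and 96.7 to 99.0% in PANC1. NFE2L2, KEAP1, GCLC, TXNRD1, SRXN1 and NQO1 overlap other annotated genes, to which part of their values could belong.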

How the data were processed

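TPM values were deposited by the authors for 153329 Ensembl transcripts in 12 libraries, each column summing to 1000000. Per the labels' protocols, RNA came from a column kit and went into a stranded kit for poly(A) mRNA. The aligner or quantifier, genome build and annotation are not given in the sources used here. TPM keeps no read depth, so no counting error or detection limit was computed, and precision comes from 2 replicates a group. Transcripts were paired with genes by GENCODE v44 (hg38): 139819, or 91.2%, matched and held 89.6 to 90.5% of a library's TPM, and 13510 were left out. TPM was summed per gene. The 14767 genes that reached 1 TPM in 2 or more libraries were fitted as log2(TPM + 1), pseudocount 1, with a mean for each of 6 groups in limma 3.58.1 (R 4.3.3, data.table version 1.17.8, lmFit, contrasts, eBayes with trend, 6 residual degrees of freedom). All groups share the estimate of spread. An exact test of 2 against 2 libraries cannot give a p below 0.333.

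The 10 genes and the lists were chosen with earlier results of these data known. The 10 genes are always named. Of the other 74 pathway genes, 69 tested, those with the largest called changes whose groups did not overlap were named, up to 3 each way per comparison, and others are marked as named after their values were seen. 1 of the other pathway genes is included in the counts and is not reported here. Alternatives were limma without trend, quantile normalization, median centring, no filter, a mean of at least 5 TPM, a pseudocount of 0.1, fewer libraries in the model, a replicate block and leaving out each replicate. The fit was also run on simulated data in which all groups had the same spread. That run does not bear on the wider spread of the ASPC1 deltaNp63 replicates. Motif and promoter windows come from RefSeq (GRCh38.p14). The gene sums of GCLC, GSS, ABCC2 and ABCC4 lack the MANE Select transcript, which had no row.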

Additional observations from a re-analysis of the deposited data

Results flagged for a closer look

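SOD2 differed between the cell lines in its response to deltaNp63, although TP63 RNA with this construct also differed between them. The change in PANC1 less that in ASPC1 was 0.81 log2 units (SE 0.122, limma adjusted p 0.0159, tested as an interaction over 14767 genes), from a fall in both ASPC1 deltaNp63 libraries and values around mock in PANC1. It did not pass with quantile normalization (0.65, limma adjusted p 0.0524), with median centring (0.63, limma adjusted p 0.065), with only the groups compared (limma adjusted p 0.0535), or without any 1 mock replicate of either line or any 1 PANC1 deltaNp63 replicate (limma adjusted p 0.0501 to 0.106).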

How the results depend on the processing

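Of the counts of called genes in each comparison, 31 recomputed counts moved by over 1.5 times and 213 did not. No called core gene changed direction. For core genes in ASPC1 with deltaNp63 (0 called), a mean of at least 5 TPM gave 1 (KEAP1), the replicate block gave 2 (KEAP1, limma adjusted p 0.0339, and TXNRD1, 0.0479), and leaving out single replicates gave 0 to 2. Leaving out single replicates gave 0 to 1 for TAp63 against deltaNp63 in ASPC1 and 0 to 1 for the cell line difference with deltaNp63, each with 0 in the full fit and 1 without ASPC1 deltaNp63 replicate 2. For the other 69 pathway genes in ASPC1 with TAp63 (1 called), the count was 0 with only the groups compared, 0 with only 6 libraries, and 0 to 1 without single replicates. With deltaNp63 (6 called) it was 2 without trend, 1 with quantile normalization, 2 with median centring, 1 with no filter, 0 with only the groups compared, 0 with only 6 libraries, and 1 to 19 without single replicates. TAp63 against deltaNp63 in ASPC1 gave 0 to 4 without single replicates (0 called). The cell line difference with deltaNp63 (1 called) gave 0 with quantile normalization, 0 with median centring, 0 with only the groups compared, and 0 to 12 without single replicates. Among fits without a single replicate, the count in each of these comparisons with deltaNp63 was highest without ASPC1 deltaNp63 replicate 2. The share of all genes called in such fits is not given here, so these counts show nothing particular to the pathway genes. The mock lines differed in 8 to 9 of the core genes and 52 to 60 of the others in all settings run. Over all genes, 1055 were called with deltaNp63 in ASPC1, 199 with quantile normalization, 419 with median centring and 1633 with the replicate block. Same-numbered libraries correlated at -0.094 to 0.293 in their deviations, so the numbers were not taken to pair libraries. The block also let GCLC pass between the mock lines (limma adjusted p 0.0177), and changed no other call among core genes. The causes of these movements were not tested. Depth is unknown, so low levels such as those of AKR1B10 have no stated precision.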

Other observations

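Of 7 tested genes of haem and iron handling outside the core set, 3 were higher and 3 lower in PANC1 mock, and HMOX2 did not pass. Of all tested genes 72.5% differed, so these counts show nothing particular to this role. The genes below were named after their values were seen. FTH1, the ferritin heavy chain, was at 9419 to 11412 TPM in ASPC1 and 2179 to 2531 TPM in PANC1 (log2 difference -2.22, SE 0.104, limma adjusted p 2.54e-08). FTL, the ferritin light chain, was at 2506 to 2781 TPM in ASPC1 and 3413 to 3928 TPM in PANC1 (0.42, SE 0.067, limma adjusted p 0.000237). The ratio of heavy to light chain RNA was 3.47 to 4.3 in ASPC1 and 0.576 to 0.685 in PANC1. Ferritin has processed pseudogenes that could share its reads. The biliverdin reductase genes BLVRA and BLVRB also ran in opposite directions. BLVRA was at 10.9 to 15.7 TPM in ASPC1 and 105 to 112 TPM in PANC1, and BLVRB at 185 to 227 and 55.3 to 67.1 TPM.

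Across the 12 libraries, centred within each line, the genes most like KEAP1 among 10149 genes were SELENOO and STAT5B (Pearson's r 0.98 for each), and those most like GCLC were ITGB1P1 (r 0.94) and PAK4 (r 0.92). These values are descriptions of libraries that share lines and constructs, chosen as the highest of many, and carry no test.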
